A study of Bos taurus with 2 samples.

Results

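The genes of the myostatin, activin and TGF-beta axis were described in fetal *longissimus thoracis* (LT) muscle of Japanese Black cattle. They were 10 genes named by role: the ligands *MSTN*, *TGFB1*, *TGFB2* and *TGFB3*, the extracellular inhibitors *FST* and *FSTL3*, the receptors *ACVR2B* and *ACVR1B*, and the intracellular mediators *SMAD3* and *SMAD7*. Probes were assigned to them through the RefSeq accession given with each probe. In this way 15 of the 43652 probes used were found, for 9 of the 10 genes, because no probe carried an accession matched to *ACVR1B*. Of these, 8 genes had a probe well above background on both arrays, as did 18800 genes in all.

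The muscle came from fetuses at 8.5 months after conception, taken at about day 260 of gestation. Their dams were fed either 120% (high nutrition, HN) or 60% (low nutrition, LN) of the nutritional requirement, before and throughout pregnancy, and per the study's methods all were inseminated with male-sorted semen of the same sire. Total RNA of 4 fetuses was pooled in each group, those with the highest bodyweight of the HN group and those with the lowest bodyweight of the LN group, so diet and the selection by bodyweight cannot be told apart. Each pool was hybridized once to a single-color Agilent Bovine (v2) array on the same slide, which leaves 1 value a group for every probe, no possible test of the difference and no p-value. All differences are given as log2 LN/HN, which is positive where the signal was higher in the LN pool.

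Myostatin, encoded by *MSTN*, is a secreted member of the TGF-beta family that muscle fibers make and that restrains muscle growth. Cattle that lack a working *MSTN* are double-muscled. Myostatin and the activins bind a type II receptor such as the product of *ACVR2B*, which activates a type I receptor such as that of *ACVR1B*, and the signal is carried to the nucleus by SMAD2 and SMAD3 together with SMAD4. The TGF-betas reach the same SMADs through their own receptors. Follistatin (*FST*) and the related *FSTL3* bind myostatin and activins outside the cell and keep them from the receptor, and SMAD7 is an inhibitory SMAD that shuts the receptor off.

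The error of a single spot can be read from 42 probes that have repeat spots with clear signal in each pool. For a single spot, the SD of log2 LN/HN was 0.085, so that 1.96 SD corresponds to 0.167, or 1.12-fold. The error that the software estimates from its own model is wider, from 0.20 to 0.28 on the log2 scale for the ratio of the 13 axis probes with a fold. Both describe the array measurement and not the spread between fetuses, which the pooling hides. The SD of repeat spots also leaves out any error that the spots of an array share, such as that of labelling and hybridization. No spot was saturated, and the median signal of the negative controls was 1.24 (HN) and 1.51 (LN).

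Of the 8 measured genes of the axis, 6 had a higher signal in the LN pool and 2 a lower one, and the differences were small. The genes higher in the LN pool were *MSTN*, *TGFB3*, *FST*, *FSTL3*, *ACVR2B* and *SMAD3*, with a log2 LN/HN between 0.19 and 0.25. The lower ones were *TGFB1* (-0.15) and *TGFB2* (-0.14). None of the 8 genes was past 1.25-fold, a threshold of 0.322 on the log2 scale, whereas 18.0% of the 19554 genes with a value were (8.85% higher and 9.11% lower in the LN pool). None was therefore past 2-fold either, as were 0.997% of all genes. The median log2 LN/HN of the 8 genes was 0.22, beside a median of -0.0033 and a share of 49.3% above 0 over all genes. At the narrower limit of 1.96 SD of a spot, a limit chosen after these values had been seen, 6 of the 8 genes were higher and 0 lower, where 20.8% and 21.5% of all genes were. With the 75th percentile of each array subtracted, 4 genes were higher and 1 lower by this limit, beside 15.6% and 28.5% of all genes. Without normalization they were again 4 and 1, beside 19.6% and 24.1%, and after the normexp background correction 2 and 1, beside 8.52% and 9.43%. The direction of each of the 8 genes was the same in these settings, with a median of 0.16, 0.20 and 0.11 in that order.

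**Figure D1:**
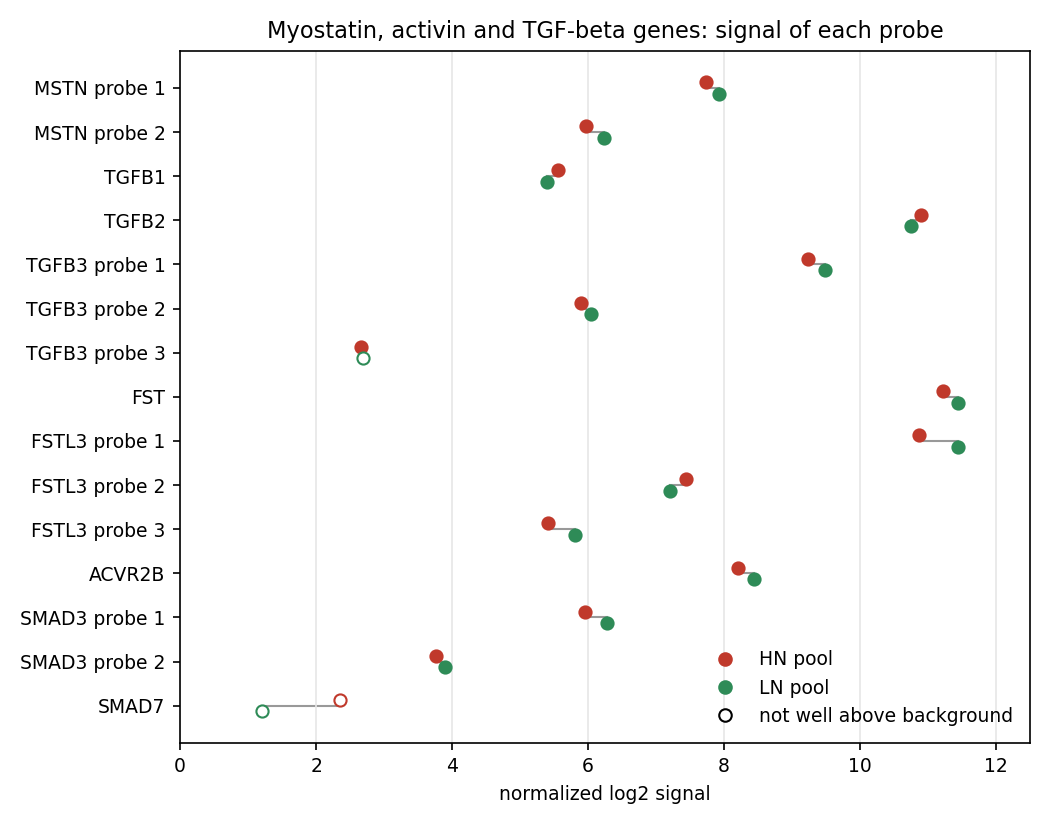
Normalized log2 signal (horizontal axis) of the 15 probes of the myostatin, activin and TGF-beta axis, with a row for each probe, in the HN pool (red) and the LN pool (green). Open circles were not well above background. The signals reach from 1.20 to 11.45, and the lines between the pools are short beside this range except that of *SMAD7* (2.36 and 1.20). *SMAD7* and the third probe of *TGFB3* are the rows with an open circle.

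*MSTN* was measured by 2 probes. The deposited intensity of the brighter probe was 211 for HN and 246 for LN, and that of the other was 62.8 and 75.2. After normalization their log2 signals were 7.73 and 7.93 in the first and 5.96 and 6.24 in the second, from HN to LN. Both probes were thus higher in the LN pool, with log2 LN/HN values of 0.20 and 0.27, and the gene had a mean of 0.24, a 1.18-fold difference. Of all genes, 13.9% had a higher log2 LN/HN. The value of *MSTN* lay between 0.18 and 0.25 over the other settings that gave one.

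The TGF-beta ligands did not share a direction. *TGFB1*, a broad regulator of matrix and immune cells, had 1 probe with log2 signals of 5.56 (HN) and 5.40 (LN), which differed by -0.15. *TGFB2* was brighter, with log2 signals of 10.89 (HN) and 10.75 (LN) from 1 probe (-0.14). Both differences were within 1.96 SD of a spot, but not in every setting. *TGFB1* was at -0.22 with the 75th percentile subtracted, -0.19 without normalization and -0.052 after the normexp background correction, which gave -0.22 for *TGFB2*. *TGFB3*, another isoform of the ligand, had 3 probes. The brightest had log2 signals of 9.24 (HN) and 9.48 (LN) and a difference of 0.24, and the next had 5.90 and 6.05 and a difference of 0.15. The third was well above background on the HN array only (2.67 and 2.69) and gave no fold. The mean of *TGFB3* was 0.19, and it was 0.084 with subtraction of the 75th percentile.

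The inhibitors of myostatin and activin stood on the same side as *MSTN*. *FST* had 1 probe, with a deposited intensity of 2350 (HN) and 2818 (LN). Its log2 signal was 11.22 and 11.44, a log2 LN/HN of 0.22 or 1.16-fold, close to that of *MSTN*. It lay between 0.20 and 0.26 in the 12 other settings.

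The 3 probes of *FSTL3* disagreed. The brightest was higher in the LN pool, with log2 signals of 10.86 (HN) and 11.45 (LN), a difference of 0.58 or 1.50-fold. The dimmest was also higher, at 5.41 (HN) and 5.81 (LN), a difference of 0.40. These were the widest differences among the axis probes with a fold. The third probe was lower in the LN pool, at 7.44 and 7.21 (-0.23). The mean of the gene was 0.25, with a wider range between probes than *MSTN*. With its brightest probe alone *FSTL3* was past 1.25-fold (0.58), as it was with the median of its probes (0.40), and no other axis gene was in those settings. After the normexp background correction *FSTL3* was at 0.14. Whether the probes read different transcripts was not tested.

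**Figure D2:**
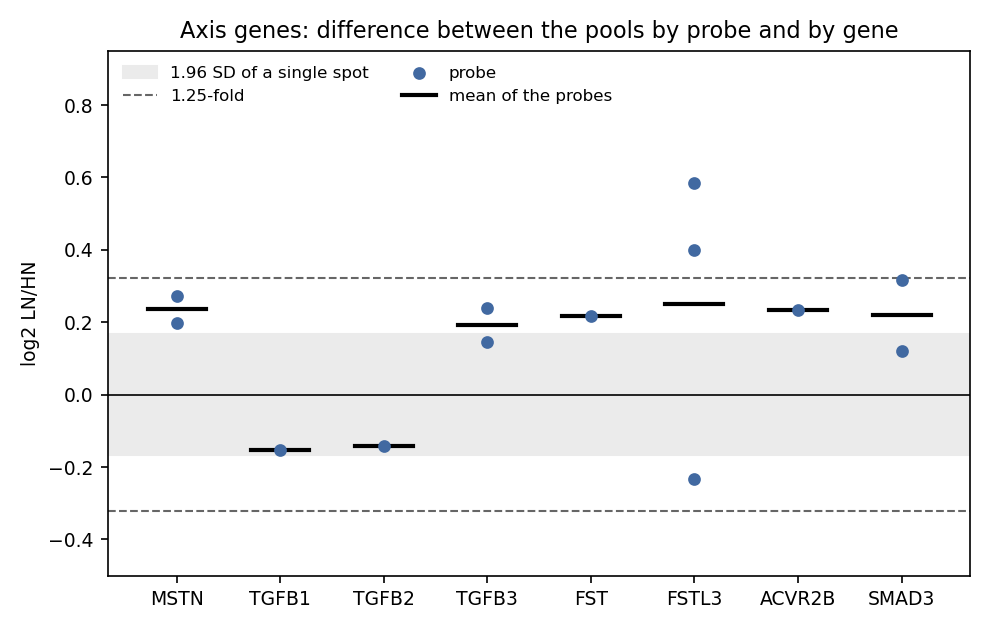
Log2 LN/HN (vertical axis) of the 8 measured axis genes, with a point for each probe and a bar at the mean of the gene. The gray band is 1.96 SD of a single spot (0.167) and the dashed lines mark 1.25-fold. All 8 means lie between the dashed lines, and the probes of *FSTL3* reach from -0.23 to 0.58.

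The type II receptor gene *ACVR2B*, through which myostatin and activins signal, had 1 probe. Its log2 signals were 8.21 (HN) and 8.45 (LN), a difference of 0.23, which was 0.15 after the normexp background correction. *SMAD3*, which carries the signal to the nucleus, had 2 dim probes. The first had log2 signals of 5.96 (HN) and 6.28 (LN), a difference of 0.32, and the second 3.77 and 3.89 (0.12). Their mean was 0.22, with the brighter probe just short of 1.25-fold, but *SMAD3* was at 0.0028 after the normexp background correction. The deposited intensity of the *SMAD7* probe was 5.57 (HN) and 1.95 (LN), with software errors of 24.4% and 79.1%. It was not well above background on either array, so no fold is given for this inhibitory SMAD.

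The 13 axis probes with a fold came from 8 genes. Of these probes, 10 were higher and 3 lower in the LN pool, where 49.3% of all genes were above 0. In 8 of the 13 probes the difference was larger than the software's error of the ratio, and in 5 it was within that error. Of the 30639 probes well above background on both arrays, 29.9% were past it. Past 1.25-fold were 2 probes, both of *FSTL3* and both higher, where 16.9% of the 30639 probes were past it in either direction.

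**Figure D3:**
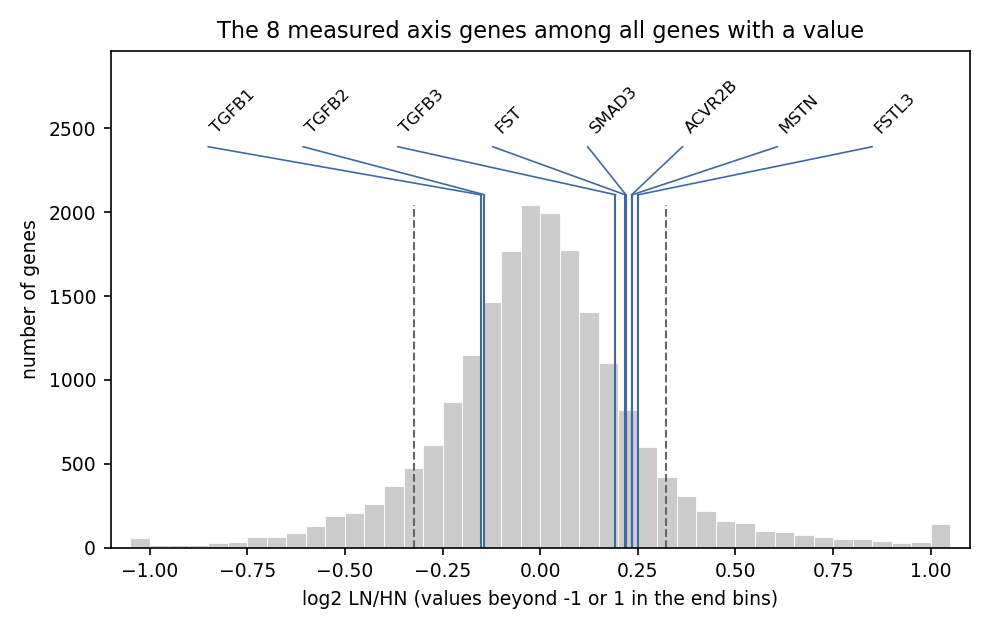
Number of genes (vertical axis) by log2 LN/HN (horizontal axis) for the 19554 genes with a value, with the 8 measured axis genes as blue lines and 1.25-fold as dashed lines. The 6 genes higher in the LN pool lie close together between 0.19 and 0.25, and *TGFB1* and *TGFB2* lie at -0.15 and -0.14.

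The wider pathway was described by 96 other genes in 6 lists by role, written from general knowledge. A matched probe was found for 78 of them, 64 were detected and 63 had a value. Of these 63, 34 were higher and 29 lower in the LN pool, with a median log2 LN/HN of 0.03. Past 1.25-fold were 5 higher and 7 lower genes, 12 of 63, a share near the 18.0% of all genes. *CHRDL2* was the 1 gene past 2-fold.

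Among the 18 other ligands, 8 had a value, with 4 higher and 4 lower and a median of -0.02. *INHBA*, which encodes the subunit of activin A, was close to even, with 2 probes at -0.13 and -0.02 and a mean of -0.07. *INHBB*, the subunit of activin B, was not well above background on either array. *INHA*, which encodes the alpha subunit that turns activin dimers into inhibins, was past 1.25-fold lower in the LN pool, with log2 signals from 13.44 to 12.99 (-0.44) and from 8.59 to 8.08 (-0.51) in its 2 probes. The largest difference upward was that of *BMP2* (0.23), which was -0.14 without a filter on dim probes. No probe was matched to *GDF11*, the closest relative of *MSTN*.

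The list of other antagonists and latent binding proteins had 15 genes with a value, 9 higher and 6 lower, and a median of 0.11. *WFIKKN2*, an antagonist that binds myostatin and its propeptide, had log2 signals of 9.51 (HN) and 9.72 (LN) in 1 probe, a difference of 0.21, and was at 0.43 without a filter on dim probes. Its relative *WFIKKN1* was not well above background. *LTBP2*, a matrix protein of the latent TGF-beta binding family, was higher by 0.63, from 1.05 in its brighter probe and 0.20 in its dimmer one. *LRRC32*, which tethers latent TGF-beta at the cell surface, was higher by 0.34 from 1 dim probe, but short of 1.25-fold after the normexp background correction (0.14), with the 75th percentile subtracted (0.25) and without normalization (0.29). *CHRDL2*, a chordin-like BMP antagonist, was lower by the largest amount of the wider pathway. Its log2 signals were 7.45 (HN) and 6.02 (LN) in the first probe (-1.43) and 5.38 and 4.36 in the second (-1.02), with a mean of -1.22. After the normexp background correction the value of *CHRDL2* was -0.61. *FSTL1*, a secreted glycoprotein of the follistatin family, was singled out after its values had been seen. Its 5 probes were all higher in the LN pool, from 0.26 to 0.44, and their mean of 0.32 was just short of 1.25-fold. *FSTL1* was past it after cyclic loess (0.34) and further below it after the normexp background correction (0.21).

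Of 12 genes of processing and release, 6 had a value, and *THBS1*, whose product can release TGF-beta from its latent form, was past 1.25-fold lower. Its log2 LN/HN was -0.34 over 6 probes, 2 of which were dim on the LN array, so that their differences are limits of smallest size. It was -0.57 with its brightest probe and -0.23, short of that threshold, after the normexp background correction. The highest value of the list was that of *ITGB8* (0.14), a subunit of an integrin that activates latent TGF-beta.

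Of the 12 other receptors, 8 had a value, 4 higher and 4 lower. *ACVR2A*, which like *ACVR2B* binds myostatin and activins, was higher in each of its 3 probes (0.34, 0.19 and 0.14) with a mean of 0.22, close to the 0.23 of *ACVR2B*. The TGF-beta receptors were short of 1.25-fold. *TGFBR1* had a log2 LN/HN of -0.03 from 2 dim probes, which was 0.0012 after the normexp background correction and -0.17 with the 75th percentile subtracted, and *TGFBR2* of 0.10 from probes at 0.28 and -0.08, the latter its brightest probe and its value in that setting. No probe was matched to *TGFBR3*. *ACVR1*, a type I receptor used mainly by BMPs, was past 1.25-fold lower (-0.43), from dim probes at -0.73 and -0.12. It was short of that threshold after the normexp background correction (-0.15) and with its brightest probe (-0.12). *BMPR1B* had a mean of 0.25, the highest of the list, but its 4 probes ranged from -0.19 to 0.71, and it was -0.0068 in the authors' normalized values and -0.19 with its brightest probe.

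**Figure D4:**
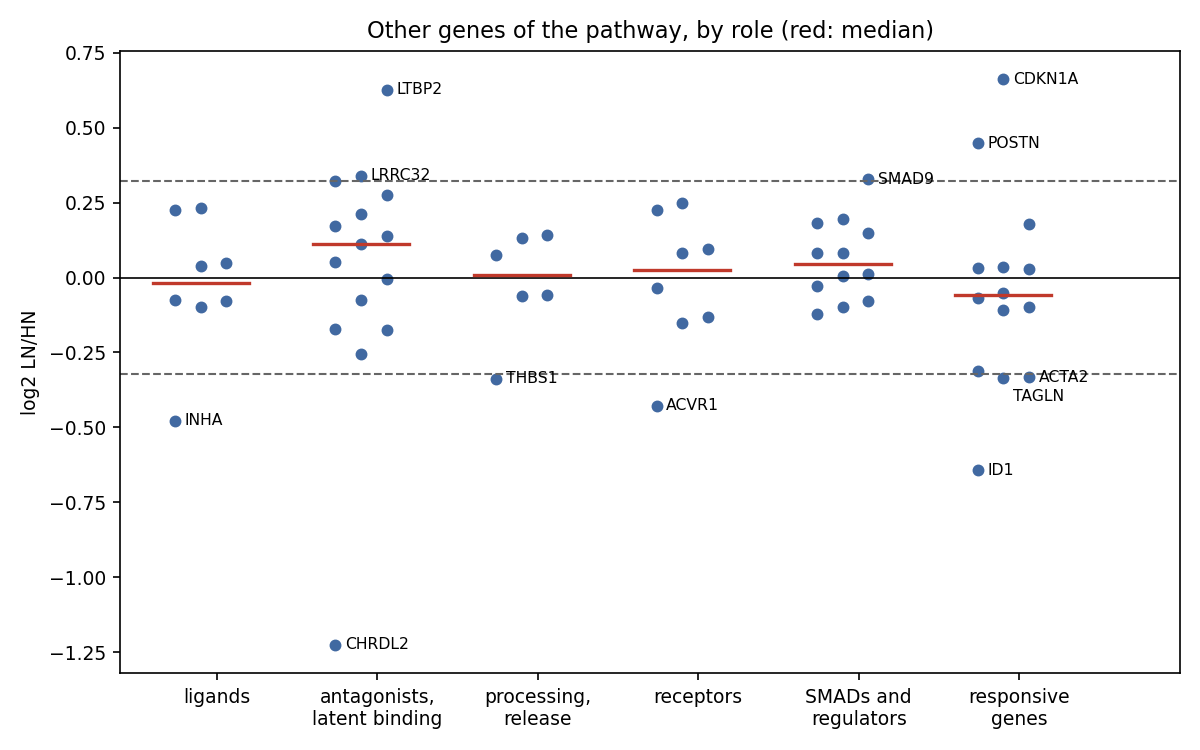
Log2 LN/HN (vertical axis) of the 63 other pathway genes with a value, in 6 lists by role, with a point for each gene, a red bar at the median of the list and dashed lines at 1.25-fold. The 12 genes past 1.25-fold are named, and the medians lie between -0.06 and 0.11.

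Among the other SMADs and their regulators, 8 of 12 genes with a value were higher in the LN pool, with a median of 0.05. *SMAD2*, the partner of *SMAD3*, was higher by 0.18 (probes at 0.13 and 0.23), and *SMAD4*, the shared SMAD, by 0.08 (probes from -0.0024 to 0.14). *SMAD6*, which like *SMAD7* is inhibitory, was not well above background on either array. *SMAD9*, which acts in BMP signaling, was higher by 0.33 from 1 probe, but short of 1.25-fold after the normexp background correction (0.21), with the 75th percentile subtracted (0.31) and in the authors' normalized values (0.31). The lowest value was that of the SMAD corepressor *TGIF1* (-0.12).

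The 15 genes known to respond to SMAD signaling did not share a direction. Of the 14 with a value, 6 were higher and 8 lower, with a median of -0.06. *CDKN1A*, an inhibitor of the cell cycle, was higher by 0.66, from 1.02 in its brighter probe and 0.30 in its dimmer one. *POSTN*, a matrix protein of connective tissue, was higher by 0.45 in 3 probes (0.32 to 0.56), and by 0.3208, just short of 1.25-fold, after the normexp background correction. *ID1*, a target of BMP signaling, was lower by 0.64 on the log2 scale, with probes at -0.58 and -0.71. *TAGLN* (-0.33) and *ACTA2* (-0.33), which are both smooth muscle genes and TGF-beta targets, were also just past 1.25-fold lower. Both were short of it without normalization (-0.32 and -0.30), as was *TAGLN* after the normexp background correction (-0.29) and *ACTA2* in the authors' normalized values (-0.31). *CCN2*, the gene of connective tissue growth factor, was just short of that threshold, at -0.31 with probes at -0.37 and -0.26.

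Markers of the cell types in the muscle piece also differed between the pools, and their part in the values above was not tested. In RNA of a whole muscle piece, fewer cells of a type and less RNA per cell cannot be told apart. All 11 skeletal muscle fiber genes with a matched probe were detected on these arrays of the labelled muscle, and 9 of them were lower in the LN pool with a median log2 LN/HN of -0.15. *MYH8*, the perinatal myosin, was higher by 0.35 and *MYH1*, a fast adult myosin, was at -0.50. Of the list, 1 gene was past 1.25-fold higher and 2 lower. The summed intensity of the list, in units of 1000, was 3322 (HN) and 3116 (LN). Of 8 fibroblast and fibro-adipogenic progenitor markers, 6 were higher in the LN pool, 4 of them past 1.25-fold, with a median of 0.29. Of all genes, 49.3% were above 0, 8.85% were past 1.25-fold higher and 9.11% lower. The 2 lower markers were *THY1* (-0.04) and *TCF4* (-0.22), the latter not specific to fibroblasts. The summed intensity of this list was 266 (HN) and 350.1 (LN) in the same units. Among endothelial markers 8 of 9 were lower (median -0.23), 2 of them past 1.25-fold, with sums of 52.1 (HN) and 41.0 (LN). Macrophage markers were lower in 7 of 8 genes (median -0.27), 3 of them past 1.25-fold, with sums of 10.04 (HN) and 8.05 (LN).

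The other marker lists held fewer or mixed differences. Satellite cell markers had a median of -0.01 over 5 genes, smooth muscle and pericyte markers of -0.09 over 6, adipocyte markers of 0.20 over 5, and nerve and Schwann cell markers of 0.13 over 7. Of the smooth muscle and pericyte list, 3 genes were lower in the LN pool, *MYH11* (-0.49), *RGS5* (-0.30) and *CNN1* (-0.29). The other 3 were higher, *LMOD1* (0.14), *CSPG4* (0.11) and the dim *PDGFRB* (0.49). Of the adipocyte list *LEP* was not well above background. Neutrophil markers had a median of 0.24 over 6 genes, of which 3 were higher and 3 lower in the LN pool. The lower ones were *MMP9* (-0.24), *ELANE* (-0.13) and *CXCR2*, which was dim on the LN array and at least 1.72-fold lower there. *S100A9* (1.25) and *S100A8* (1.39) were past 2-fold higher. Of the 7 erythroid markers, *SLC4A1* and *KLF1* were among those not well above background, and the 3 genes with a value lay between -0.16 and -0.03.

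**Figure D5:**
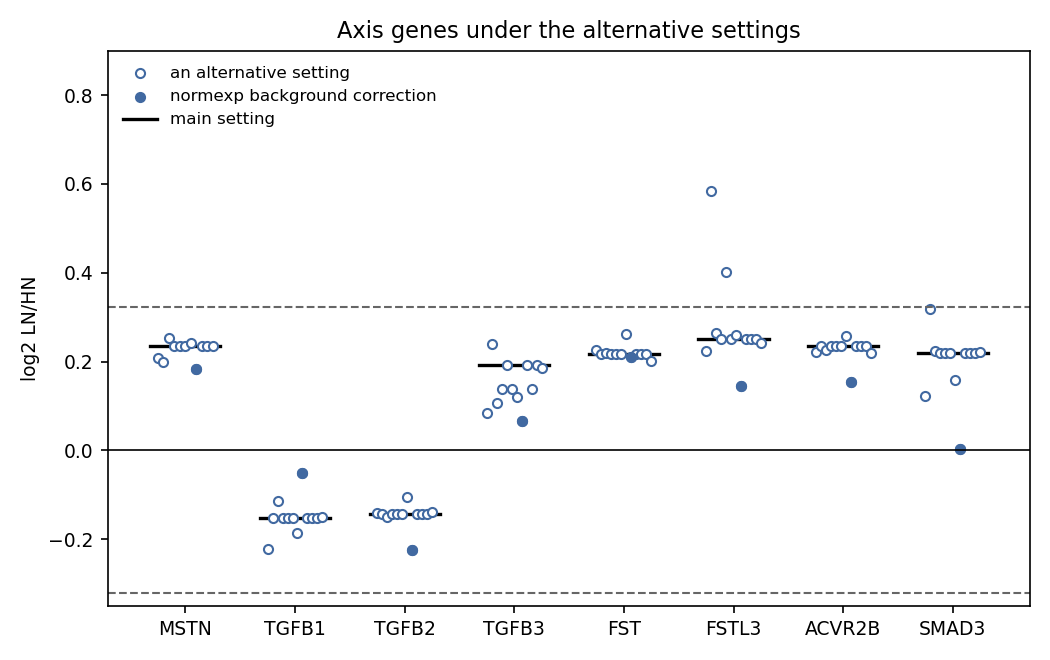
Log2 LN/HN (vertical axis) of the 8 measured axis genes in the main setting (bar) and in the alternative settings (circles, the normexp background correction filled), with dashed lines at 1.25-fold. No circle is on the other side of 0 from its bar, *FSTL3* alone passes 1.25-fold, and *SMAD3* comes to 0.0028 after the normexp background correction.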

How the data were processed

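The authors pooled total RNA of 4 fetuses a group, hybridized each pool to an Agilent 4x44K Bovine (v2) array and extracted the spots with Feature Extraction 11.0.1.1. The deposited intensities are background-subtracted and detrended within each array, with no normalization between arrays. The authors also deposited GeneSpring GX values after quantile normalization, judged from the values to be on the log2 scale. They were used as an alternative, but not for *MSTN*.

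Here log2 intensities of the 43803 non-control spots were quantile-normalized (limma 3.58.1, R 4.3.3), the procedure named in the study's methods. The 13 spots with an outlier flag were removed and spots of a probe averaged, with Python 3.11.15, numpy 2.4.6 and pandas 2.3.3. The plots used matplotlib 3.10.9. Detection required the software's mark for a signal well above background in either pool. For a probe marked in 1 pool, the unmarked value was replaced by the lowest marked signal of its array (log2 2.27 for HN, 2.82 for LN) unless it was itself higher, and the fold was left out where the marked value lay below this limit. A gene is the mean of its probes with a fold. Symbols come from the RefSeq gene table of ARS-UCD2.0 (26742 probes matched). The array design uses UMD 3.1, so no coordinates are given. The normexp alternative used median spot signals with an offset of 50.

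The genes, lists, 12 alternatives and the rule for named genes (all axis genes, fixed direct partners, and in each list the genes past 1.25-fold and both extremes) were chosen with earlier results of these data known. A few listed genes count in the totals but are not reported here by name. The steps were tested on simulated data. There every probe was marked in both pools or in neither, so the rule for a probe marked in 1 pool was not tested. With 1 array a group there is no test, and the number of arrays limits the precision.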

Additional observations from a re-analysis of the deposited data

How the results depend on the processing

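The 12 alternatives left the direction of all 8 measured axis genes as it was, and 6 of 8 genes were above 0 in each (5 of 7 in the authors' normalized values, which were not used for *MSTN*, and 6 of 9 with *SMAD7* included). All settings draw on the same arrays. For the measured axis genes with 1 probe, some settings gave the main value again and were no separate check. These were the settings that filter dim probes, choose among probes or keep flagged spots. The median log2 LN/HN was 0.11 after the normexp background correction, the lowest, and 0.23 with the brightest probe of each gene, the highest. The count of axis genes past 1.25-fold, 0 in the main setting, was 1 in 4 settings. It was *FSTL3* with the brightest probe (0.58) and with the median over probes (0.40). It was *SMAD7* without a filter on dim probes (-1.16, a difference between signals near background). *SMAD7* was also past 1.25-fold lower under a filter that asks for a positive, significant signal. *TGFB3* was 0.084 when the 75th percentile was subtracted and 0.066 after the normexp background correction, which also gave -0.052 for *TGFB1*. *SMAD3* was 0.12 with the 75th percentile subtracted and 0.32 with its brightest probe. Over all genes, 3512 were past 1.25-fold, against 710 after the normexp background correction, 6906 with positive and significant probes and 6843 without a filter. The share of higher genes among them was 49.3%, but 30.7% with the 75th percentile subtracted and 39.3% without normalization. Dim probes such as those of *SMAD3* and *ACVR1* are limited by their signal over background. No paired analysis was possible because each group has 1 array.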

Other observations

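The BMP branch of the same family, which acts through SMAD1, SMAD5 and SMAD9 and not through SMAD2 and SMAD3, was measured in part. Of 4 BMP ligands with a value, 3 were higher in the LN pool (median log2 LN/HN 0.14) and none was past 1.25-fold. Without a filter on dim probes *BMP2* (-0.14) and *BMP4* (-0.08) were lower, and *BMP7* was 0.23 but 0.012 after the normexp background correction. Of 4 receptors, 2 were higher and 2 lower. The 3 ID genes, which respond to BMP signaling, did not share a direction. *ID1* was lower in both probes, with log2 signals of 12.12 (HN) and 11.54 (LN) in the brighter one, whereas *ID2* was at 0.18 and *ID3* at -0.10. These groups were drawn up after the values had been seen.

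The probe of *INHBC*, which encodes an activin subunit known mainly from liver, was among the brightest on both arrays, with log2 signals of 17.61 (HN) and 17.65 (LN). On the HN array 69 of 43652 probes were brighter, and on the LN array 63. The transcript that this probe reads was not tested, and its log2 LN/HN was 0.04.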
